A study of Homo sapiens with 20 samples.

Results

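The interaction of cisplatin and TM after 12 h was measured on 11 of the 20 arrays of the series, chosen by their labels: 3 arrays labelled Control, 3 of cells given cisplatin for that time (Cis 12 h), 2 of cells given TM (TM 12 h) and 3 of cells given the combination (Cis/TM 12 h). All held RNA of MDA-MB-231, a long-established line from a triple-negative breast cancer (no estrogen or progesterone receptor and no HER2 amplification), hybridized to Affymetrix Human Gene 1.0 ST arrays, and the doses were 36 µM cisplatin and 10 µM TM. The methods describe vehicle-treated controls collected at both times, but the labels give Control no time, and its 3 arrays serve for both 12 h and 24 h here. The methods describe triplicate wells per treatment and no repeat on another day, so p-values measure the spread between such wells, which may be technical. Of the cell line's markers, VIM, CD44, AXL, CAV1, MSN and LGALS1 had group means from 9.40 to 11.82 on the log2 scale, TGFBI from 6.88 to 7.67, and the group means of the 16 measured markers of leukocytes, endothelium, fibroblasts and erythroid cells lay between 2.93 and 6.42. The 8 measured luminal and epithelial markers had group means from 3.47 to 8.70. Not all of these were low: in Control, EPCAM lay at 8.70, above TGFBI, and KRT19 at 6.02. In bulk RNA, fewer cells of a kind and less RNA per cell cannot be told apart.

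Cisplatin crosslinks DNA and blocks replication and transcription. TM (ammonium tetrathiomolybdate) binds copper, which cells need for cytochrome c oxidase, copper-zinc superoxide dismutase and lysyl oxidases, and which shares transporters and chaperones with platinum drugs. Drugs that act independently on a transcript multiply its level by the product of their folds, and their log2 changes add. The interaction was therefore the level of the combination minus the additive sum, where the additive sum is Control plus the change with each drug alone. A positive departure means that the doubly treated cells lay above the additive sum, and a negative departure that they lay below it, whichever way each drug alone moved the gene.

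Of 18417 genes, 631 (3.43%) lay above the additive sum and 1266 (6.87%) below it, at an adjusted p under 0.05 and a departure over 1.5-fold. The largest positive departure was that of TCP11L2, a gene of little described function, and the largest negative departures were those of RNVU1-6 and RNVU1-15, variants of the U1 small nuclear RNA. The changes behind these departures were unequal. Cisplatin raised 2718 genes (14.8%) and lowered 1983 (10.8%), TM raised 1656 (8.99%) and lowered 573 (3.11%), and the combination raised 2800 (15.2%) and lowered 1575 (8.55%) against Control. Against TM alone, the combination was higher for 1218 genes (6.61%) and lower for 1286 (6.98%). Against cisplatin alone it was higher for 0 genes (0.0%) and lower for 0 (0.0%) with limma, although 1731 genes passed an unadjusted p under 0.05, and 42 higher and 10 lower genes did so with a fold over 1.5. The smallest adjusted p of that comparison was 0.234. At its median standard error of 0.135, the unadjusted 95% interval of 1 gene spans 0.28 to either side on the log2 scale, and a call also required over 1.5-fold and the adjustment over 18417 genes, so smaller differences are not shown to be absent.

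The 1656 genes raised by TM had a median change of 0.79 without cisplatin and of 0.04 with it (quartiles −0.07 and 0.14, Cis/TM minus Cis), and 1114 of them (67.3%) lay below the additive sum. The 573 genes lowered by TM had medians of −0.71 and 0.01 (quartiles −0.08 and 0.14), and 348 of them (60.7%) lay above it. These genes were picked by TM minus Control, and the same arrays enter the departure with the opposite sign. That selection alone moves the departure against the change with TM, so these shares are no separate result. The reverse view differed. The 2718 genes raised by cisplatin had a median change of 0.92 without TM and of 0.42 with it (Cis/TM minus TM), and 894 of them were called in the same direction there. The 1983 genes lowered by cisplatin had medians of −0.91 and −0.60, and 1003 of them were called again. Of the genes raised by cisplatin, 37.5% lay below the additive sum, and of those lowered 19.7% lay above it, with the same limit. The change with TM alone was thus called in no gene on top of cisplatin, while many changes with cisplatin were called on top of TM. Across genes, the change with TM alone and the change with TM on top of cisplatin, which share no array, had a Spearman's rho of 0.15, against 0.64 for the same pair of changes with cisplatin. Genes are not independent replicates, and these values are descriptions.

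**Figure D1:**
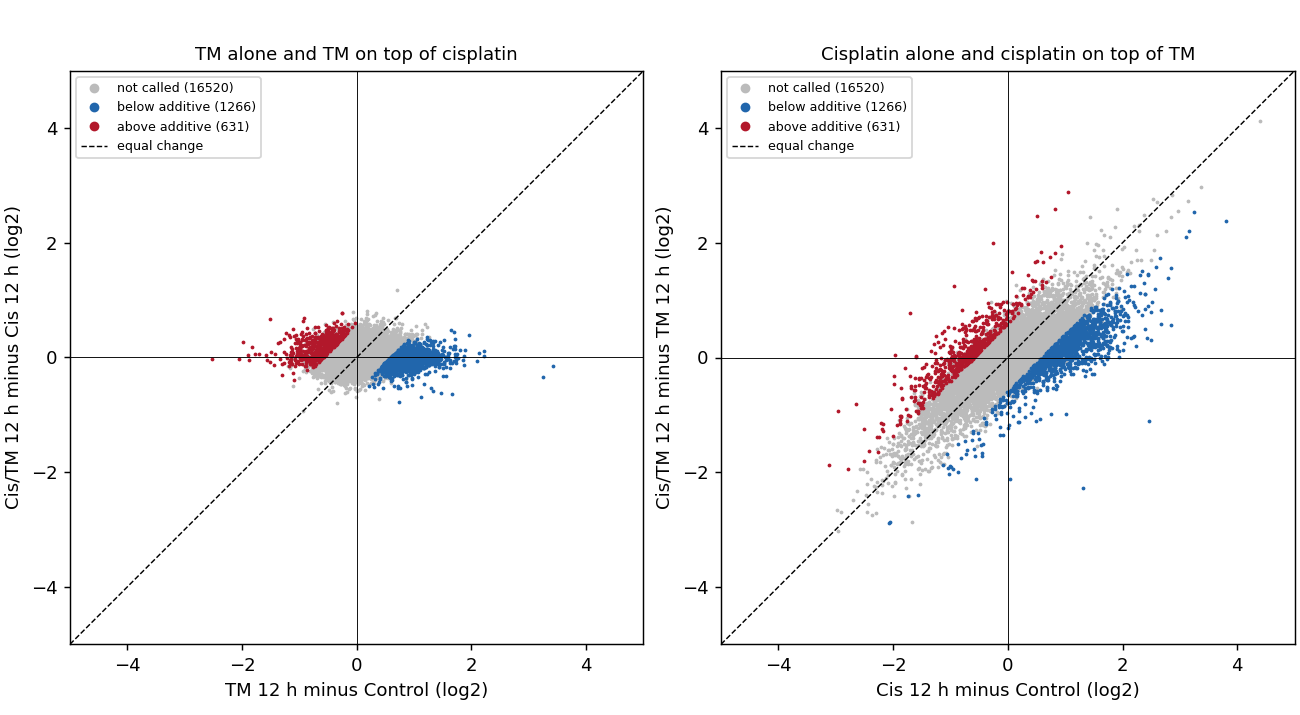
Change of each of the 18417 genes with a drug alone (x axis, log2) and with the same drug added to the other (y axis, log2), for TM on the left and cisplatin on the right; red points were called above and blue points below the additive sum, and the dashed line marks equal changes. The left cloud lies flat along zero, with medians of 0.04 and 0.01 for the genes that TM raised and lowered. The right cloud rises with the x axis (rho of 0.64) but is flatter than the dashed line. Genes raised by cisplatin had medians of 0.92 alone and 0.42 with TM, and genes lowered by it −0.91 and −0.6.

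The called genes were sorted by whether each drug and the combination moved them against Control. The most frequent patterns were those in which all 3 treatments moved a gene the same way: 887 of the 1266 genes below additivity were raised by cisplatin, by TM and by both, and 189 of the 631 above it were lowered by all 3. In these patterns the 3 treatments lay near each other and Control lay apart, with median changes of 1.20, 0.91 and 1.17 for the raised genes and of −1.01, −0.79 and −0.90 for the lowered ones. Other patterns set TM apart. A total of 164 genes below were raised by TM alone and 105 above were lowered by TM alone, and neither cisplatin nor the combination was called for them. Another 105 genes above were called under no treatment against Control, and 103 were lowered by cisplatin and by both without TM. Since the 3 Control arrays enter each drug's change with a negative sign and the departure with a positive sign, an offset of these arrays and a shared response to all treatments cannot be told apart in the first patterns.

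**Figure D2:**
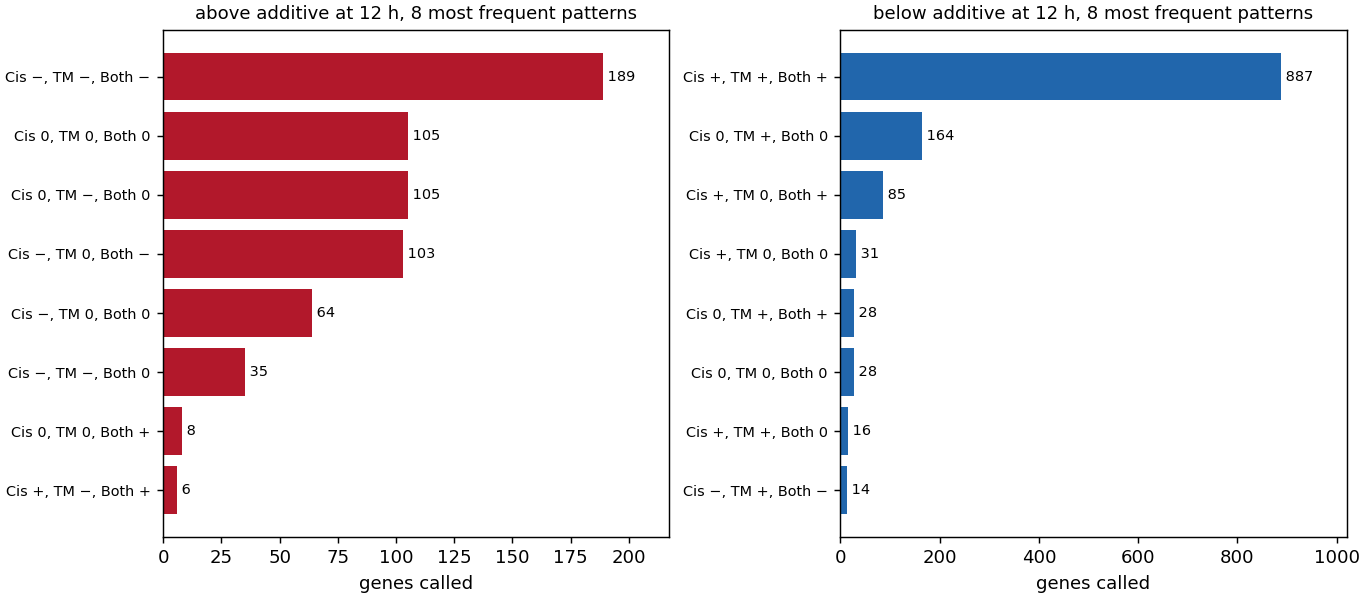
Number of genes called above (left) and below (right) the additive sum at 12 h, by whether cisplatin, TM and the combination (Both) raised (+), lowered (−) or did not change by the call (0) the gene against Control; the 8 most frequent patterns are shown for each direction. Among the genes below, 887 were raised by all 3 treatments, and among those above, 189 were lowered by all 3 and 105 by TM alone.

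TXNIP, which binds and inhibits thioredoxin and restrains glucose uptake, was 1 of the 105 genes that TM lowered only without cisplatin. Its log2 values were 10.75, 10.74 and 10.64 in Control, 11.18, 11.30 and 11.19 with cisplatin, 8.76 and 8.85 with TM and 11.34, 11.28 and 11.18 with both drugs. The TM arrays lay far under all others, and the doubly treated arrays overlapped with those of cisplatin alone. The additive sum was 9.32, and the departure was 1.95 (SE 0.14, adjusted p = 3.51e-07). Cis/TM minus Cis was 0.05, with a 95% interval from −0.15 to 0.24. ARRDC4, an arrestin-domain relative of TXNIP, had values of 6.04, 6.63 and 6.84 in Control, 7.07, 7.38 and 7.52 with cisplatin, 4.97 and 4.63 with TM and 7.53, 7.35 and 7.29 with both drugs. It was raised by cisplatin and lowered by TM, the doubly treated arrays again overlapped with the cisplatin arrays, and the departure was 1.77 (SE 0.27, adjusted p = 0.000434). Both genes are textbook targets of MondoA and its partner MLX, which bind paired CACGNG boxes when glucose-6-phosphate is high. Of the 14 measured genes of that family and pathway, these were the 2 above additivity (14.3%, against 3.43% of all genes). MLX was the 1 below it (7.1%, against 6.87% of all genes), with a departure of −0.69 (adjusted p = 0.0143).

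The promoters of TXNIP and ARRDC4 are shown because both genes followed the same course over the 4 groups. Each run holds the 250 bases before the RefSeq start (build GRCh38.p14), read 5′ to 3′ on the strand of the gene, with matches to CACGNG on either strand in capitals (overlapping matches run together). TXNIP lies on the minus strand at chr1:145996580-145996829 and ARRDC4 on the plus strand at chr15:97960453-97960702.
TXNIP: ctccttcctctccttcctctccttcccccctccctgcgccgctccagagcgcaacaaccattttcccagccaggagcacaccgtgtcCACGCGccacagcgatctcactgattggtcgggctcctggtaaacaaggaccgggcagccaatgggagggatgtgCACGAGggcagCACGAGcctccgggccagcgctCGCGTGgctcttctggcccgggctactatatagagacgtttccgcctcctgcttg
ARRDC4: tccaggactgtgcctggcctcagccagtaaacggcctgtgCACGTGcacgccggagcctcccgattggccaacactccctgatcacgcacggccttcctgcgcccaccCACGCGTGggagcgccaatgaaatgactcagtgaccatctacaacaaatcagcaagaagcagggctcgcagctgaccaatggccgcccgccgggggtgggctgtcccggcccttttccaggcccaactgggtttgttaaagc
TXNIP held 4 matches, of which 2 formed a paired box, in which 2 copies of CACGNG stand 5 bases apart, and 1 match to the forkhead motif GTAAACA. ARRDC4 held 3 matches to CACGNG and no paired box with that spacing. Over windows of 250 bases before and 50 after the start, CACGNG occurred in 36.7% of 14239 promoters of the tested genes, the paired box in 0.126% and GTAAACA in 2.45%. Among the 81 promoters found for the 105 genes lowered by TM alone, CACGNG occurred in 18 (22.2%), the paired box in 1, that of TXNIP, and GTAAACA in 4 (4.94%). Among the 131 promoters found for the 164 genes below additivity that TM alone raised, CACGNG was commoner, in 65 (49.6%). The paired box occurred in 0 of these and GTAAACA in 2 (1.53%). A match describes letters and not a site in use.

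CYP1B1, a cytochrome P450 that metabolizes estrogens and polycyclic aromatic compounds, had the second largest positive departure. Its values were 8.71, 8.79 and 8.93 in Control, 8.33, 8.71 and 8.63 with cisplatin, 7.02 and 6.64 with TM and 8.86, 8.79 and 8.82 with both drugs. Only the TM arrays stood apart, and the departure was 2.25 (SE 0.21, adjusted p = 5.2e-06). CCNG2, an atypical cyclin linked to growth arrest, had the same course, with values of 7.93, 7.94 and 8.21 in Control, 8.19, 8.07 and 8.02 with cisplatin, 6.58 and 6.46 with TM and 7.96, 8.05 and 8.05 with both drugs, and a departure of 1.43 (SE 0.15, adjusted p = 1.63e-05). Its relative CCNG1 departed by 1.21 (adjusted p = 0.00178), and DDIT4, which restrains mTORC1 signaling, by 1.35 (adjusted p = 0.000278). Among the other genes of this pattern, chosen after their values were seen, GLRX, which reduces glutathionylated proteins, departed by 1.13 and IDH1, the cytosolic isocitrate dehydrogenase, by 1.11. On the arrays of 24 h, which the departure at 12 h did not use, 48 of the 105 (45.7%) were higher in Cis/TM than in TM. The share was 25.8% among all 573 genes lowered by TM at 12 h and 3.53% among all genes.

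The 164 genes raised by TM alone held SLC2A1, the glucose transporter GLUT1. Its values were 8.34, 8.60 and 8.33 in Control, 8.22, 8.69 and 8.13 with cisplatin, 9.86 and 9.75 with TM and 8.61, 8.28 and 8.45 with both drugs. The groups other than TM overlapped with each other, and the departure was −1.28 (SE 0.22, adjusted p = 0.000886). BCL2L1, which encodes the antiapoptotic BCL-xL, followed the same course with a departure of −1.08 (SE 0.28, adjusted p = 0.0158). RNVU1-3 departed by −2.16, but its sequence is nearly identical to that of other U1 copies and its probes may read several of them. On the arrays of 24 h, 40 of the 164 (24.4%) were lower in Cis/TM than in TM. The share was 11.8% among all 1656 genes raised by TM at 12 h and 2.75% among all genes.

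Some genes were moved in opposite directions by the drugs. Cisplatin raised and TM lowered 15 genes, and cisplatin lowered and TM raised 53. For every gene of both sets, the mean of the doubly treated arrays was nearer to that of cisplatin than to that of TM. The 15 had median changes against Control of 0.75 with cisplatin, −0.89 with TM and 0.88 with both. Of them, 9 lay above additivity, against 3.43% of all genes. The 53 had medians of −0.91, 0.70 and −0.75, and 14 lay below additivity, against 6.87% of all genes. Both sets were picked by single-drug changes whose arrays also enter the departure, so these counts are no separate result. SLFN5, an interferon-inducible Schlafen gene, had values of 9.13, 9.12 and 9.14 in Control, 10.04, 10.29 and 10.19 with cisplatin, 7.33 and 7.39 with TM and 10.27, 10.21 and 10.24 with both drugs. No TM array came near another group, and the departure was 1.84 (SE 0.17, adjusted p = 5.93e-06). CMIP, an adaptor protein of immune signaling that was chosen after its values were seen, ran the other way, with 6.59, 6.54 and 6.54 in Control, 5.54, 5.63 and 5.93 with cisplatin, 7.86 and 7.79 with TM and 6.06, 5.52 and 5.91 with both drugs. Its departure was −1.14 (SE 0.21, adjusted p = 0.00169). Also chosen in this way, CTSO, a lysosomal cysteine protease, and OPN3, an opsin, departed by 1.25 and 1.05, and NEDD4L, a ubiquitin ligase that restrains the epithelial sodium channel, by −0.88. ABCC1, a drug efflux pump that exports glutathione conjugates, was lowered by cisplatin (−0.72) and by both drugs (−0.77), was raised by TM (0.90) and had a departure with a 95% interval from −1.39 to −0.52.

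**Figure D3:**
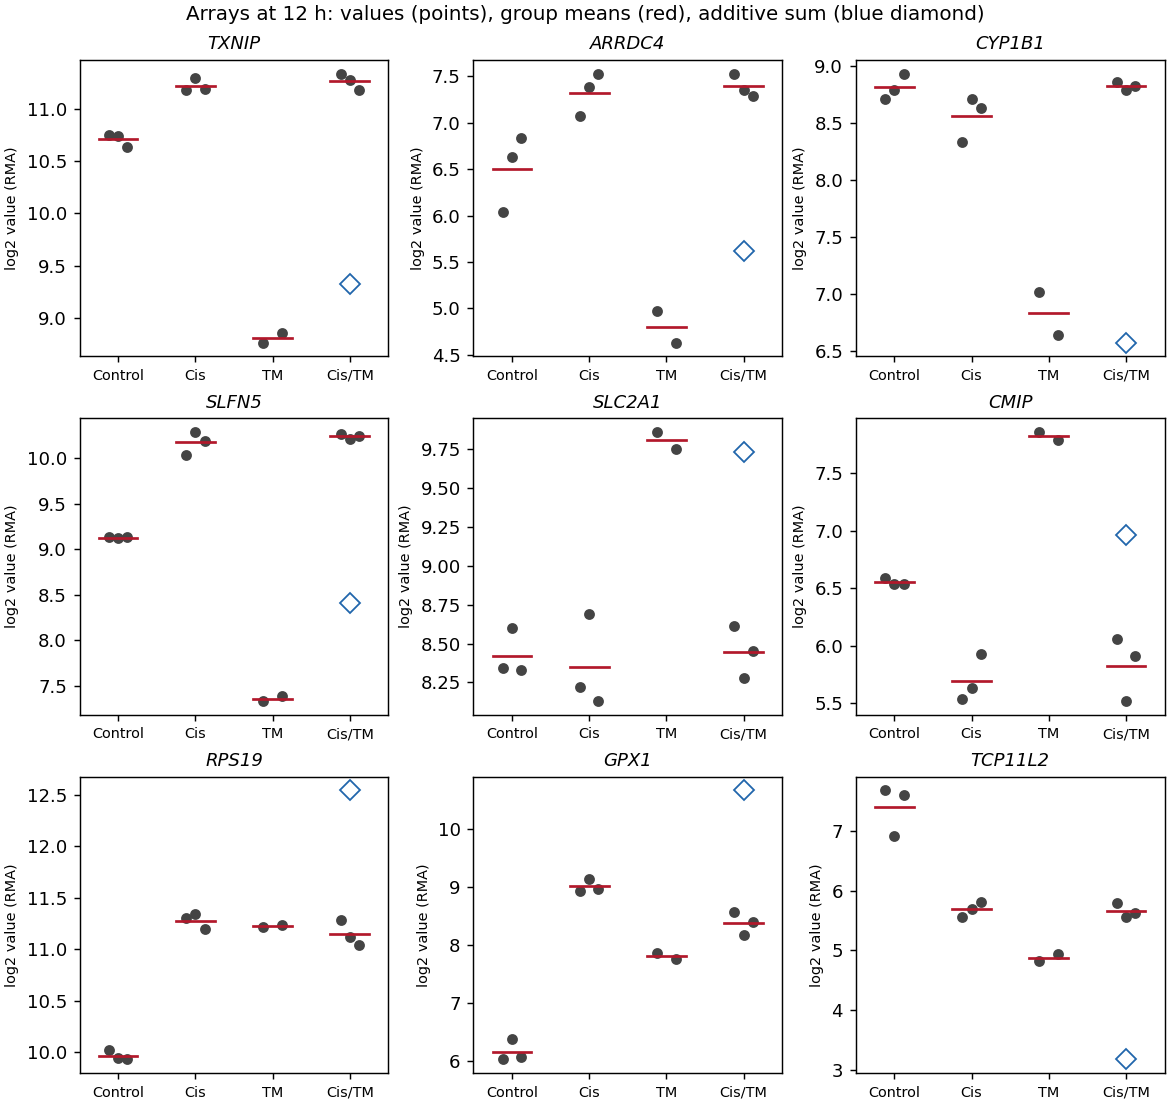
Log2 value (RMA) of 9 genes on each array of the 4 groups at 12 h (points), with the group mean (red line) and the additive sum of the single-drug changes (blue diamond, placed at Cis/TM); the y axes do not start at zero. In TXNIP, ARRDC4, SLFN5, SLC2A1 and CMIP the TM arrays stand apart and Cis/TM lies at the level of Cis. In CYP1B1 the TM arrays also stand apart, but Cis/TM lies at the level of Control and above Cis. In RPS19, GPX1 and TCP11L2 Control stands apart, with an additive sum of 12.54 for RPS19 against a Cis/TM mean of 11.15.

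Genes of protein synthesis, RNA processing and protein turnover were called almost only below additivity. RPS19, a protein of the small ribosomal subunit, had values of 10.02, 9.94 and 9.93 in Control, 11.30, 11.34 and 11.20 with cisplatin, 11.22 and 11.24 with TM and 11.28, 11.12 and 11.04 with both drugs. The 3 treatments overlapped and all lay above Control, and the departure was −1.40 (SE 0.14, adjusted p = 8.3e-06). Of 49 cytosolic ribosomal proteins, 19 lay below and 0 above, and their median departure was −0.39, against 0.02 over all genes. Ribosome biogenesis factors gave 24 of 60 below and 0 above (median −0.44), among them the processing factors NOB1 (−1.72) and RRP9 (−1.65). RNA polymerase subunits gave 13 of 29 below (median −0.55), such as POLR1E of polymerase I (−0.95) and POLR2H, shared by all 3 polymerases (−0.75), with POLR3GL as the 1 above. The proteasome gave 16 of 41 below and 0 above (median −0.29), with the regulatory subunit PSMD3 at −1.30 and the catalytic subunit PSMB5 at −1.03. The spliceosome gave 15 of 67 below and 0 above (median −0.27), with the Sm protein SNRPF at −1.22. Set against 6.87% of all genes below additivity, these shares ran from 22.4% to 44.8%. For these lists the median of Cis/TM minus Cis lay between −0.07 and 0.08. Their median levels ran from 8.36 to 10.99, against 5.84 over all genes. The SD over genes was 2.01 to 2.03 on the Control arrays and 2.03 to 2.15 on those of Cis 12 h. It was 2.145 and 2.175 on those of TM 12 h and 2.13 to 2.17 on those of Cis/TM 12 h. Whether this narrower spread in Control bears on these counts was not tested. Centring each array on its median lowered the proteasome count to 10 and a departure on the unlogged scale gave 10 as well.

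Mitochondrial and glycolytic genes were also called mostly below. Oxidative phosphorylation gave 24 of 61 below (39.3%, against 6.87% of all genes) and 0 above (against 3.43%), with a median of −0.42. Its count below was 17 after median centring. NDUFB9 of complex I departed by −1.15 and CYC1 of complex III by −1.49. TWNK, the mitochondrial DNA helicase, departed by −2.19 and TXN2, the mitochondrial thioredoxin, by −2.05. Hypoxia and glycolysis genes gave 11 of 35 below and 1 above (31.4% and 2.9%, median −0.52). Besides SLC2A1, those below included the aldolases ALDOA (−1.11) and ALDOC (−1.01) and the glucose transporter SLC2A3, or GLUT3 (−0.74), and the 1 above was VEGFA, the angiogenic growth factor (0.69). The count below was 7 with quantile normalization, 7 on the unlogged scale and 7 without TM 12 h replicate B.

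**Figure D4:**
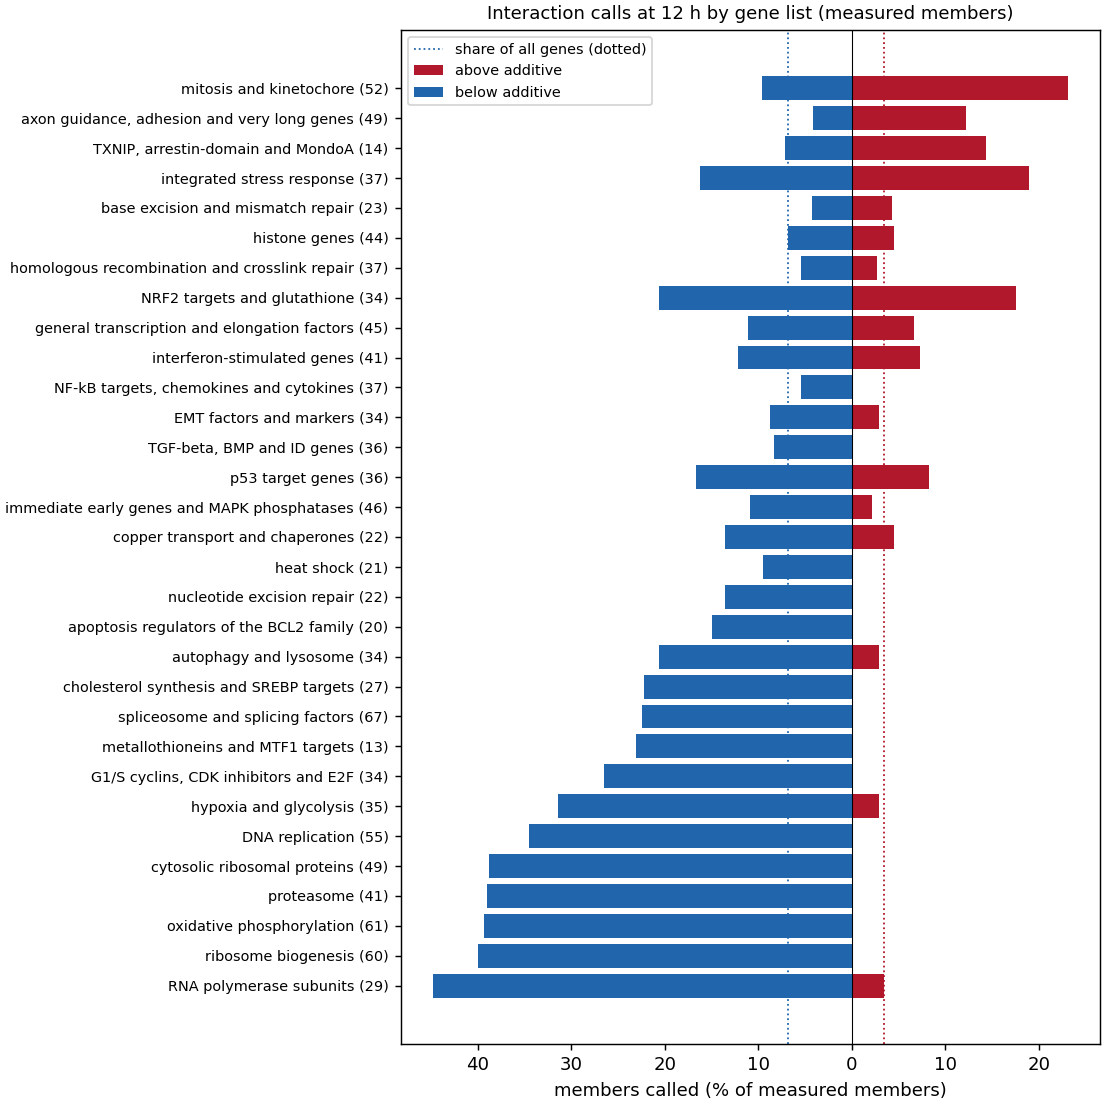
Share of the measured members of 31 gene lists (number measured in brackets) called above (red, right) and below (blue, left) the additive sum at 12 h; the dotted lines mark the shares of all genes, 3.43% above and 6.87% below. RNA polymerase subunits, ribosome biogenesis, oxidative phosphorylation, the proteasome and cytosolic ribosomal proteins have the highest shares below, and mitosis and kinetochore genes the highest share above.

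Among cell cycle genes, replication and mitosis parted. DNA replication genes gave 19 of 55 below (34.5%, against 6.87% of all genes) and 0 above (against 3.43%), with a median of −0.33. Their count below was 13 with quantile normalization. The helicase subunit MCM7 departed by −1.32, the polymerase delta subunit POLD2 by −1.70 and the clamp loader subunit RFC2 by −1.10. G1/S genes gave 9 of 34 below (26.5%) and 0 above. Of these, MYBL2, a transcription factor of the G1/S and G2/M programs, had values of 6.39, 6.91 and 6.62 in Control, 7.92, 8.05 and 7.87 with cisplatin, 8.34 and 8.28 with TM and 8.16, 7.97 and 8.13 with both drugs. The treated groups all lay above Control, and the departure was −1.53 (SE 0.19, adjusted p = 8.61e-05). Mitosis and kinetochore genes gave 12 of 52 above and 5 below (23.1% and 9.6%, against 3.43% and 6.87% of all genes). HMMR, a spindle-associated hyaluronan receptor, had values of 7.88, 8.31 and 8.26 in Control, 6.52, 7.30 and 7.21 with cisplatin, 7.03 and 6.90 with TM and 7.41, 7.44 and 7.35 with both drugs. Both single drugs lowered it, the doubly treated arrays lay above both single-drug groups, and the departure was 1.58 (SE 0.25, adjusted p = 0.00053). The mitotic kinase NEK2 departed by 1.01, the spindle-pole protein ASPM by 1.18 and the kinetochore motor CENPE by 0.88, whereas the kinase AURKB (−1.14) and the cohesion factor CDCA5 (−2.10) lay below. The count of mitosis genes above was 6 without TM 12 h replicate A, 6 without replicate B and 7 without Cis 12 h replicate A, and the count below was 2 after median centring and 2 without TM 12 h replicate B. For CDCA5 the departure was not called on the unlogged scale (adjusted p = 0.0642).

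The stress pathways were divided. Of 37 genes of the integrated stress response, in which ATF4 drives amino acid synthesis and transport, 7 lay above and 6 below additivity. These were 18.9% and 16.2% of the list, against 3.43% and 6.87% of all genes. Those above included ASNS, asparagine synthetase (0.99, adjusted p = 0.00015), PSAT1 of serine synthesis (0.65), VLDLR (1.60) and SLC7A11, the cystine transporter (0.82). Those below included ATF4 itself (−0.84), ATF5 (−0.82), PPP1R15A, the phosphatase subunit that ends the response (−1.16), and SLC3A2, the partner of SLC7A11 (−0.86), besides the serine enzyme SHMT2 and the glutamine transporter SLC1A5. Both drugs raised ATF4, ATF5, PPP1R15A and SLC3A2, and for ASNS and DDIT4 only TM was called, with the 3 other groups closer together. DDIT4 had values of 6.43, 6.46 and 6.94 in Control, 5.90, 6.02 and 6.23 with cisplatin, 5.41 and 5.28 with TM and 6.08, 6.20 and 6.14 with both drugs. Its TM arrays were the lowest, and cisplatin and the combination lay between them and Control.

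NRF2 targets and glutathione genes gave 6 above and 7 below of 34 (17.6% and 20.6%, against 3.43% and 6.87% of all genes). The genes above were GCLC and GCLM, the subunits of glutamate-cysteine ligase (0.71 and 0.59), ME1, malic enzyme (0.86), SLC7A11, TXNRD1, thioredoxin reductase (95% interval from 0.44 to 0.95), and AKR1C3, an aldo-keto reductase (0.28 to 1.27). Those below included enzymes that use glutathione. GPX1, a selenium-dependent glutathione peroxidase, had values of 6.03, 6.39 and 6.08 in Control, 8.93, 9.14 and 8.97 with cisplatin, 7.87 and 7.76 with TM and 8.57, 8.17 and 8.39 with both drugs. The doubly treated arrays lay between the single drugs, and the departure was −2.29 (SE 0.20, adjusted p = 4.23e-06). GSTP1, a glutathione transferase, departed by −1.47 and GPX4, which reduces lipid peroxides, by −1.26. GCLM lost its call in 7 of the fits that left out 1 array, and AKR1C3 in 6.

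Of 36 p53 targets, 3 lay above (8.3%, against 3.43% of all genes) and 6 below additivity (16.7%, against 6.87%). With quantile normalization the counts were 5 and 5. CCNG2, CCNG1 and the ribonucleotide reductase subunit RRM2B (0.70) were those above. PMAIP1, which encodes the BH3-only protein NOXA, had values of 7.81, 7.47 and 7.93 in Control, 10.51, 10.49 and 10.59 with cisplatin, 9.08 and 8.92 with TM and 10.41, 10.34 and 10.43 with both drugs. Each treatment raised it, the combination stayed at the level of cisplatin, and the departure was −1.40 (SE 0.16, adjusted p = 3.51e-05). CDKN1A, the CDK inhibitor p21, departed by −0.95 (SE 0.21, adjusted p = 0.00612), GADD45B by −1.02 and the apoptosis effector BAX by −0.75. Of 20 measured genes of the BCL2 family, PMAIP1, BAX and BCL2L1 lay below (15.0%, against 6.87% of all genes) and 0 above (against 3.43%).

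Of 22 copper transporters and chaperones, 3 lay below (13.6%, against 6.87% of all genes) and 1 above (4.5%, against 3.43%). The count below was 1 on the unlogged scale. MT1X, a metallothionein that binds copper and zinc, had values of 7.97, 7.70 and 7.93 in Control, 9.58, 9.42 and 9.45 with cisplatin, 8.19 and 8.34 with TM and 8.99, 9.17 and 8.99 with both drugs. The doubly treated arrays lay under those of cisplatin alone without overlap, and the departure was −0.83 (SE 0.15, adjusted p = 0.00136). For MT1X, the 95% interval of Cis/TM minus Cis ran from −0.64 to −0.23, although no gene of that comparison passed adjustment over all genes. ATOX1, the chaperone that hands copper to the export pumps, departed by −0.89 (adjusted p = 0.00612), MTF1, which drives metallothioneins, by −0.70, and the metalloreductase STEAP2 by 0.70. ATP7A, the copper export pump, had values of 7.93, 7.97 and 7.84 in Control, 5.68, 6.51 and 6.29 with cisplatin, 7.50 and 7.55 with TM and 6.32, 6.41 and 6.44 with both drugs. Cisplatin and the combination lay below Control and TM, and the departure of 0.62 was not called (SE 0.24, adjusted p = 0.0937). ATP7B had a departure with a 95% interval from −0.52 to 0.52 and the copper importer SLC31A1 one from −0.12 to 0.39, neither called. A further list held 17 measured genes of copper and drug transport, the DNA damage response, proliferation and stem-cell markers. Of these, CDCA5 and CDKN1A were the 2 called, both below (11.8%, against 6.87% of all genes), and neither was called on the unlogged scale. The other 15 had departures from −0.51 in STAT3 to 0.86 in CD24 (adjusted p = 0.0526), with ATM at 0.52 (0.0636), BRCA1 at 0.11 (0.831) and CHEK1 at −0.11 (0.711).

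At the far end of the range stood short noncoding RNAs. RNVU1-6 had values of 4.53, 4.77 and 4.47 in Control, 5.58, 5.99 and 6.11 with cisplatin, 8.21 and 7.48 with TM and 5.78, 5.42 and 5.48 with both drugs. TM raised it most, the combination lay at the level of cisplatin, and the departure was −3.59 (SE 0.29, adjusted p = 1.63e-06). RNVU1-15 departed by −3.56, but copies of U1 are nearly identical and cannot be separated with certainty. RPPH1, the RNA of ribonuclease P, departed by −2.09. In all, 23 small nucleolar RNAs and 10 small nuclear RNAs lay below and 7 and 0 above, of 175 and 20 measured. These counts are to be read against 6.87% of all genes below and 3.43% above. Near-identical U1 copies are counted singly, although their probes may read the same RNA.

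Gene length, which the departure does not use, differed among the patterns. The median RefSeq gene length was 24.5 kb over all genes, 54.6 kb in genes above and 13.8 kb in genes below additivity. Cisplatin alone showed a like contrast, with a median of 12.3 kb in the genes it raised and 126.0 kb in those it lowered, and TM alone a smaller one (17.7 and 31.1 kb). Genes raised by all 3 treatments were short (11.3 kb), and so were those raised by cisplatin and by both without TM (8.4 kb). Genes lowered by cisplatin and by both without TM were long (124.2 kb), and the 14 genes below additivity that cisplatin lowered and TM raised had a median of 363.0 kb. Among the last, KCNQ5, a potassium channel gene chosen after its values were seen, had a 95% interval of the departure from −1.27 to −0.36 (adjusted p = 0.0185), and SLIT2, an axon guidance ligand, departed by −0.64 (adjusted p = 0.0397), and neither was called under any of the 3 other scalings. Of 49 genes of axon guidance, adhesion and great length, 6 lay above, among them the sialyltransferase ST6GALNAC3 (1.84), KLHL4 (95% interval from 0.77 to 1.72) and the giant lipoprotein receptor LRP1B (0.82), and 2 below. The 2 below, LPP and SLIT2, were not called after median centring, quantile normalization or cyclic loess. The shares of this list were 12.2% above and 4.1% below, against 3.43% and 6.87% of all genes.

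**Figure D5:**
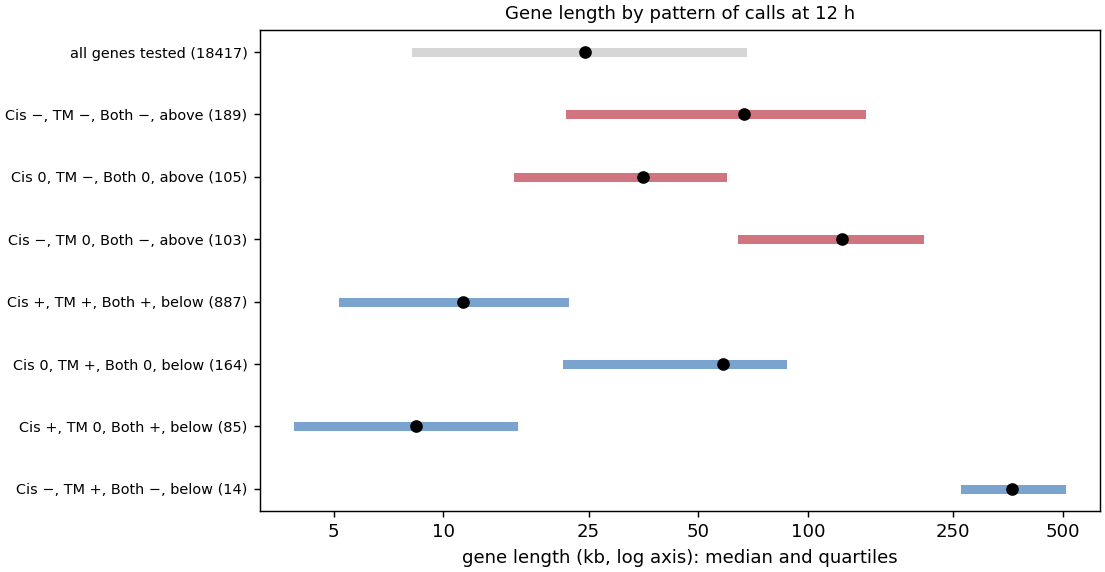
Length of RefSeq genes (kb, log axis) in 7 patterns of calls at 12 h and in all genes; points are medians, bars run from the lower to the upper quartile, signs mark raised (+), lowered (−) or not called (0) against Control, and the number of genes stands in brackets. Genes raised by all 3 treatments have a median of 11.3 kb and genes lowered by cisplatin and raised by TM one of 363.0 kb, against 24.5 kb over all genes.

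Finally, the interaction was compared with that at 24 h, computed on the same 3 Control arrays and 9 others. At 24 h, 936 genes (5.08%) lay above and 2104 (11.4%) below additivity. The departures at 12 h and 24 h were 1.43 and 1.13 for CCNG2, 1.77 and 1.17 for ARRDC4, 1.84 and 1.82 for SLFN5, −1.28 and −1.31 for SLC2A1, and −1.40 and −1.21 for RPS19. Both departures of a gene contain the same Control arrays, so their likeness is no independent result. In the test of the difference between the times, from which Control cancels, 0 genes (0.0%) had a higher and 4 (0.0217%) a lower departure at 12 h with limma. With an unadjusted p under 0.05 and a fold over 1.5, these counts were 111 and 174. The 4 genes are ARHGAP26, DTNA, PDGFD and PRKCA.

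The counts at 12 h rest on the 2 TM arrays and on the scale. Without TM 12 h replicate A, 328 genes lay above and 711 below, and without replicate B 294 and 830. Cis 12 h replicate A, whose SD over genes of 2.03 lay below the 2.12 and 2.15 of its group and near the 2.01 to 2.03 of Control, left 490 and 1323 when it was removed. Genes above made up 33.3% of the calls as deposited, 52.4% after median centring, which moved the median departure of all genes by 0.10, 46.2% with quantile normalization and 42.6% with cyclic loess. On the unlogged scale, 553 of the 631 genes above and 771 of the 1266 below passed again with the same sign, and of 147 named called genes 29 lost the call, among them ARRDC4, TXN2, ELOF1, CDCA5, CDKN1A, ATOX1, MTF1, PSMD3, ALDOC, SLC2A3, OPN3 and AKR1C3. For 97 genes above, the additive sum lay under 2.85, the first percentile of all values, and for 99 below it lay over 11.2, the 99th percentile.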

How the data were processed

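RNA of MDA-MB-231 cells was measured on 20 arrays, and the authors deposited log2 values after RMA, per the submitters' processing notes. RMA corrects background, quantile-normalizes and summarizes probes, so that probe-level depth is not known and the number of arrays limits the precision. Over the genes tested, the deposited values were not equally distributed between arrays, with medians from 5.71 to 5.94 and SDs from 2.01 to 2.18. Probe clusters with 1 gene symbol were kept, the one with the highest mean per gene, giving 18417 genes. limma 3.58.1 (R 4.3.3) was fitted to 7 groups and 20 arrays, with 13 residual degrees of freedom and no covariate, and contrasts were called at an adjusted p under 0.05 (Benjamini-Hochberg over all genes) and over 1.5-fold. All adjusted p-values, SEs and intervals are limma's, and the tests are two-sided. On simulated data for the interaction at 12 h over 18417 genes, 74 of 100 genes changed 2-fold and 99 of 100 changed 3-fold were recovered, with 10 false calls.

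The arrays and gene lists were chosen with earlier results of these data known. Named genes were the 12 largest departures per direction, up to 3 called genes per list by smallest p, called genes of a list described, and the members of a list of drug transport, DNA damage and stem-cell genes; others are said to be chosen after their values were seen. Promoters and gene lengths came from RefSeq (GRCh38.p14). Replicate letters were checked as pairs: within the 4 groups, residuals of 15 same-letter pairs correlated from −0.42 to 0.21 (median −0.03), and the letters were not taken as pairs. Alternatives were other scalings, array weights, trend and robust moderation, other gene filters and thresholds, 4 groups only, a replicate block, an unlogged scale and leaving out each array.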

Additional observations from a re-analysis of the deposited data

Results flagged for a closer look

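For 4 genes, the test of the difference between times passed its threshold, and all had a lower departure at 12 h than at 24 h. They were ARHGAP26, with a departure at 12 h minus that at 24 h of −1.38 (SE 0.22, adjusted p = 0.0334), DTNA, a dystrophin-associated protein, with −1.22 (adjusted p = 0.041), PDGFD, a growth factor, with −1.25 (adjusted p = 0.041), and PRKCA, protein kinase C alpha, with −1.15 (adjusted p = 0.0334), all from limma. At 12 h none of the 4 departures was called. Cisplatin at 12 h lowered all 4, with log2 changes of −1.44 for ARHGAP26, −1.48 for DTNA, −0.98 for PDGFD and −1.51 for PRKCA. With TM at 12 h, the log2 differences from Control were −0.45 for ARHGAP26, −0.11 for DTNA, −0.07 for PDGFD and 0.01 for PRKCA, and none of these was called. The number of such genes ranged from 0 to 9 when 1 array was left out, with 9 without Cis 12 h replicate A.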

How the results depend on the processing

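At 12 h, 631 genes lay above additivity, 965 after centring each array on its median and 399 with only the 4 groups, and 294 to 770 when 1 array was left out. The 1266 genes below ranged from 711 to 1514 when 1 array was left out. At 24 h the count above was 1799 after centring and 1424 with no fold minimum, and the count below was 1358 with quantile normalization. Genes with a higher departure at 12 h than at 24 h numbered 4 with array weights, 111 at an unadjusted p and 0 to 1 when 1 array was left out. Those with a lower departure numbered 2 with cyclic loess, 2 with trend and robust moderation, 38 with array weights, 0 with the replicate block, 174 at an unadjusted p and 0 to 9 when 1 array was left out. Genes higher in Cis/TM 12 h than in Cis 12 h numbered 27 with array weights, 42 at an unadjusted p and 0 to 5 when 1 array was left out, and those lower numbered 14, 10 and 0, and 1 with quantile normalization. The cause of these shifts was not tested. With the replicate block, 544 genes lay above and 1149 below at 12 h, of which 528 and 1131 were called without it. Of 3379 values that 147 named called genes took under the alternatives, 3164 stayed called, 215 kept the direction without a call and 0 reversed. Without TM 12 h replicate A, 25 of these genes lost the call, and without replicate B 24, the former including BCL2L1 and CENPE and the latter PSAT1 and RRM2B. VEGFA lost it without either. Counts of small lists moved with single arrays and scalings.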

Other observations

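Several smaller lists had more calls below than above additivity at 12 h, to be read against 3.43% of all genes above and 6.87% below. Cholesterol synthesis genes gave 6 of 27 below (22.2%) and 0 above, with DHCR7, the last reductase of the pathway, at −1.36, but 3 below without TM 12 h replicate A and 2 without replicate B. Autophagy and lysosome genes gave 7 of 34 below (20.6%), with HEXA, a lysosomal hexosaminidase, at −1.13, and the autophagy protein WIPI1 as the 1 above. The lysosome count below was 2 without TM 12 h replicate A, 4 without replicate B or without Cis/TM 12 h replicate B, 4 after centring or cyclic loess and 3 on the unlogged scale, and quantile normalization gave 3 above and 3 below. Immediate early genes and MAPK phosphatases gave 5 of 46 below (10.9%), with the phosphatase DUSP1 at −1.52 and FOS at −1.29, and KLF10 as the 1 above, and their count below ran from 2 without TM 12 h replicate B to 8 without Control replicate B or C. Metallothioneins and MTF1 targets gave 3 of 13 below (23.1%), and the zinc exporter SLC30A1 among them departed by −0.59. The metallothionein count was 1 without either TM 12 h array and 1 after median centring.

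Other lists were divided or had few calls, to be read against 3.43% of all genes above and 6.87% below. Where a share lay near these, as for histone and homologous recombination genes, it is no result about the list. Interferon-stimulated genes gave 3 of 41 above (7.3%), with SAMD9L at 1.31, and 5 below (12.2%), with OASL at −1.06, and without either TM 12 h array 1 above and 2 below. General transcription factors gave 3 of 45 above (6.7%) and 5 below (11.1%), and without either TM 12 h array 1 and 3. Histone genes gave 2 of 44 above (4.5%), with H4C8 at 0.90, and 3 below (6.8%), with 0 above without TM 12 h replicate A. Epithelial-mesenchymal genes gave ZEB1, a repressor of epithelial genes, above (0.63, 2.9% of the list) and 3 of 34 below (8.8%), with the epithelial keratin KRT8 at −1.15. Homologous recombination and crosslink repair genes gave 1 of 37 above (2.7%) and 2 below (5.4%), the latter 6 without Cis 12 h replicate A. Nucleotide excision repair genes gave 0 of 22 above and 3 below (13.6%), the latter 1 without TM 12 h replicate A. Base excision and mismatch repair genes gave 1 of 23 in each direction (4.3%). Transforming growth factor beta and BMP genes gave 3 of 36 below (8.3%, 1 without TM 12 h replicate A), heat shock genes 2 of 21 (9.5%) and NF-kB targets 2 of 37 (5.4%), all with 0 above, and the NF-kB count was 0 under all 3 other scalings. Of the cell line markers LGALS1, a galectin, was the 1 of 7 below, and none of the 8 luminal markers or 16 markers of other cell types was called.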
